A study of Mus musculus with 2 samples.

Results

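The respiratory chain is built from 2 genomes, and its genes were followed here in tumor cells of 2 mice as a set of 105 genes, 92 of them in the nucleus and 13 on the mitochondrial chromosome, of 32285 genes in the count matrices and 16037 symbols that the authors kept. The nuclear members were chosen by symbol: all genes whose names start with Nduf, Uqcr, Atp5 or Cox4 to Cox8, and Sdha, Sdhb, Sdhc, Sdhd, Cycs and Cyc1. The mitochondrial members were all genes whose symbols start with mt-. A further 4 matching symbols (Cox6a2, Cox7b2, Cox8c and Ndufa4l2) were not on the authors' list of kept genes, with at most 10, 1, 2 and 20 UMIs in either mouse. The choice was by name among genes that passed the authors' filter on low counts.

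Both mice carried Krt8-CreERT, Rosa26-mTmG and MMTV-PyMT, and both received tamoxifen, so there was 1 group with n = 2 and no control. MMTV-PyMT drives a viral oncogene in the mammary epithelium, and Krt8-CreERT places a recombinase that tamoxifen activates under the promoter of the luminal keratin Krt8, where it turns on green fluorescent protein (GFP) from Rosa26-mTmG in those cells and their descendants. Tamoxifen was given at 150 mg/kg on 6 days in weeks 5 and 6 of age, and tumors were taken at 1.5 cm3. GFP-positive live cells without the endothelial protein CD31 and the leukocyte protein CD45 were loaded on a droplet system that counts transcripts by unique molecular identifiers (UMIs) near their 3′ end. Promoter activity of Krt8 and the sort limit the data to labelled descendants of luminal cells and to cells that slipped through the gates.

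The authors' annotation placed 3829 cells of mouse 1 and 5330 of mouse 2 in 18 clusters, numbered 0 to 17. Their median depth was 15014 and 9470 UMIs. Clusters 1, 5 and 14 were shallow, with medians of 1258, 2059 and 2908 UMIs in mouse 1 and 1009, 1638.5 and 2085 in mouse 2. Of the 9159 annotated cells, 9 barcodes occurred in both libraries. The pan-luminal marker list (keratins Krt7, Krt8, Krt18 and Krt19, Epcam and claudins) was present in all clusters, from 7303 to 30400 counts per 1000000 UMIs (CPM) as means of the mice. The basal list (Krt5, Krt14, Acta2 and others) was highest in cluster 6, at 3609 and 3725 CPM in mouse 1 and mouse 2, where the fibroblast list (Col1a1, Col3a1, Dcn and others) also peaked at 1503 and 2987. Mature luminal markers (Esr1, Pgr, Prlr and others) were highest in cluster 13, at 2304 and 3577, luminal progenitor markers (Elf5, Kit, Lcn2 and others) in cluster 8, at 32464 and 39065, and proliferation markers in cluster 16, at 1926 and 1878. The authors removed cells by their mitochondrial share of UMIs, and no annotated cell exceeded 19.4% in mouse 1 or 19.3% in mouse 2, which caps the mitochondrial values.

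Oxidative phosphorylation passes electrons from NADH through complex I, or from succinate through complex II, to complex III, cytochrome c and complex IV, which reduces oxygen; complexes I, III and IV pump protons, and complex V uses the gradient to make ATP. Complexes I, III, IV and V mix nuclear subunits, made in the cytosol and imported, with core subunits made inside the organelle. Complex II and cytochrome c are nuclear alone. The nuclear promoters are classically read by nuclear respiratory factor 1 (NRF1), the ETS factor GABPA (nuclear respiratory factor 2) and YY1, whereas the mitochondrial chromosome is transcribed by its own polymerase as long polycistrons that are later cut.

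By complex, the nuclear set held 37 subunits of complex I, 8 complex I assembly factors (Ndufaf genes), 4 genes of complex II, 9 of complex III, 16 of complex IV, 17 of complex V, and Cycs. Ndufa4 was counted under complex IV, where the protein is now placed. The nuclear genes lay on 19 chromosomes of GRCm38 (GENCODE vM21 positions), with at most 8 on one of them (chromosome 2) and 3 on X. The mitochondrial genes held 7 genes of complex I, 1 of complex III (mt-Cytb), 3 of complex IV and 2 of complex V, packed between bases 2751 (the start of mt-Nd1) and 15288 (the end of mt-Cytb) of chromosome M. All lay on the plus strand except mt-Nd6, at chrM:13552-14070 on the minus strand. mt-Atp8 (bases 7766 to 7969) overlaps mt-Atp6 (7927 to 8607), and mt-Nd4l (9877 to 10173) overlaps mt-Nd4 (10167 to 11544), each pair on 1 shared transcript. Counts taken near the 3′ end therefore lean to mt-Atp6 and mt-Nd4, and the split within each pair is uncertain.

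To show what the nuclear members share in sequence, 300-base promoter windows (250 bases before to 50 after each start) were taken from RefSeq on GRCm38.p6, which held 80 windows for 75 of the 92 nuclear genes. The NRF1-type motif GCGCATGC, searched on both strands, occurred in 13 of the 75 genes (17.3%), in 2.71% of all 32851 promoter windows and in 5.32% of the 11856 kept genes with a window. The ETS motif CCGGAAG occurred in 19 genes (25.3%), in 8.86% of all windows and in 18.2% of kept genes. The YY1-type motif ATGGCGG occurred in 12 genes (16.0%), in 4.05% of all windows and in 8.37% of kept genes. At least 1 of these motifs was present in 37 of the 75. The TATA motif TATAAA, by contrast, was in 7 genes (9.33%), against 13.6% of all windows and 9.51% of kept genes. These are matches of letters, not measured binding.

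The stretches below show motifs in 4 members that hold them: Uqcr11 and Atp5g2, which were lower in cluster 6, Ndufaf4, which was higher there, and Cycs, the carrier between complexes III and IV. Of 10 members called lower in cluster 6, 9 had a promoter window. Of these 9, 3 held the NRF1 motif and 2 the ETS motif, beside 13 and 19 of all 75. A link of motif and direction was not tested. Uqcr11 also had an NRF1 match in its window, outside the stretch shown. Each is the 90 bases on the gene's own strand, 5′ to 3′, and capitals mark motif matches. Capitals are the ETS motif in Uqcr11 (chr10:80406840-80406929, minus strand), overlapping NRF1 matches on both strands in Atp5g2 (chr15:102671048-102671137, minus strand) and Ndufaf4 (chr4:24897930-24898019, plus strand), and the NRF1 motif, read on the other strand, in Cycs (chr6:50566581-50566670, minus strand).
Uqcr11: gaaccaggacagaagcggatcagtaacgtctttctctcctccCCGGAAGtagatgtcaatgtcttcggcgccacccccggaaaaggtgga
Atp5g2: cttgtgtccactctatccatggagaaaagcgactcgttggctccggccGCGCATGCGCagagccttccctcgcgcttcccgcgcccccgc
Ndufaf4: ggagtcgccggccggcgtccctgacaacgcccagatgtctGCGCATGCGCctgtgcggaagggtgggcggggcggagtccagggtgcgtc
Cycs: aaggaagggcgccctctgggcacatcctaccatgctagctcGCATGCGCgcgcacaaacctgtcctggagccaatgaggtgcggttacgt
In Atp5g2 and Ndufaf4 the overlapping matches form the same palindrome of 10 bases. The last base shown lies 19, 1, 64 and 12 bases before the RefSeq start of Uqcr11, Atp5g2, Ndufaf4 and Cycs.

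Summed over each mouse and cluster, the nuclear and the mitochondrial genes each varied by more than 2-fold, with different clusters at their extremes. Levels in CPM are the UMIs of a gene or set per 1000000 UMIs of all cells of that cluster in that mouse. In this assay a UMI marks 1 captured transcript whatever its length, so no length correction was made. The clusters were drawn by the authors from the expression of the same cells, and with 2 mice a paired permutation test of a single value cannot go below p = 0.5, so the sums are given without a test. Over all annotated cells the nuclear genes took 2.75% of UMIs in mouse 1 and 2.79% in mouse 2, and the mitochondrial genes 6.55% and 6.01%.

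The nuclear sum was lowest in cluster 1, at 13359 CPM in mouse 1 and 11836 in mouse 2. It was highest in cluster 8 in mouse 1 (42283 CPM) and in cluster 14 in mouse 2 (53405 CPM). Cluster 8 was nearly equal in both mice (42140 ± 203 CPM, SD, n = 2), whereas cluster 14 differed between them, with 39115 CPM in mouse 1 and 53405 in mouse 2. The top cluster of mouse 1 depended on the weighting. As a mean over cells, cluster 14 was highest in both mice (49829 and 57662 CPM), above cluster 8 (41869 and 42451). With cells thinned to 2000 UMIs it was also highest in both (48427 and 56956, against 41825 and 42403 in cluster 8). In the sums, clusters 4 (34949 and 36408 CPM), 16 (32244 and 34586) and 5 (31424 and 33780) followed. The median of the 18 clusters was 27208 CPM in mouse 1 and 27000 in mouse 2, and clusters 12 (22219 and 18070 CPM), 10 (18142 and 22219) and 6 (22475 and 19530) came next above cluster 1. These 3 clusters overlapped between the mice, and their order cannot be told from 2 mice, but cluster 1 lay below each of them in both.

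The mitochondrial sum had other extremes. It was highest in cluster 11, at 100201 CPM in mouse 1 and 110639 in mouse 2, and in cluster 1, at 103000 and 89621. Clusters 11 and 1 overlapped each other, and both lay above every other cluster in both mice, the next being cluster 9 at 76071 and 70979 CPM in mouse 1 and mouse 2 and cluster 15 at 69123 and 73314. It was lowest in cluster 10 in mouse 1 (48316 CPM) and in cluster 14 in mouse 2 (42308 CPM). As a mean over cells, cluster 14 was lowest in both mice (26966 and 37208 CPM, against 42786 and 48137 in cluster 10). With cells thinned to 2000 UMIs it was again lowest in both (31000 and 42263, against 42833 and 50141). In the sums, clusters 13 (51521 and 49364 CPM), 5 (55565 and 47041) and 14 (55359 and 42308) also lay low. The mice differed most in cluster 7, with 75103 CPM in mouse 1 and 55281 in mouse 2.

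Cluster 1 thus had the lowest nuclear and one of the highest mitochondrial levels, and its ratio of nuclear to mitochondrial UMIs was 0.130 in mouse 1 and 0.132 in mouse 2. Cluster 14 stood at the other end, with a ratio of 0.707 and 1.26. All other clusters lay between them in both mice, from 0.260 (cluster 11, mouse 2) to 0.718 (cluster 5, mouse 2). In cluster 8 (0.671 and 0.581) the high nuclear level came with a mitochondrial level of 62975 and 72334 CPM. With UMIs outside the mitochondrial genes as the denominator, the nuclear level of cluster 1 was still the lowest, at 14894 and 13001 per 1000000, and cluster 14 reached 41407 and 55764.

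**Figure D1:**
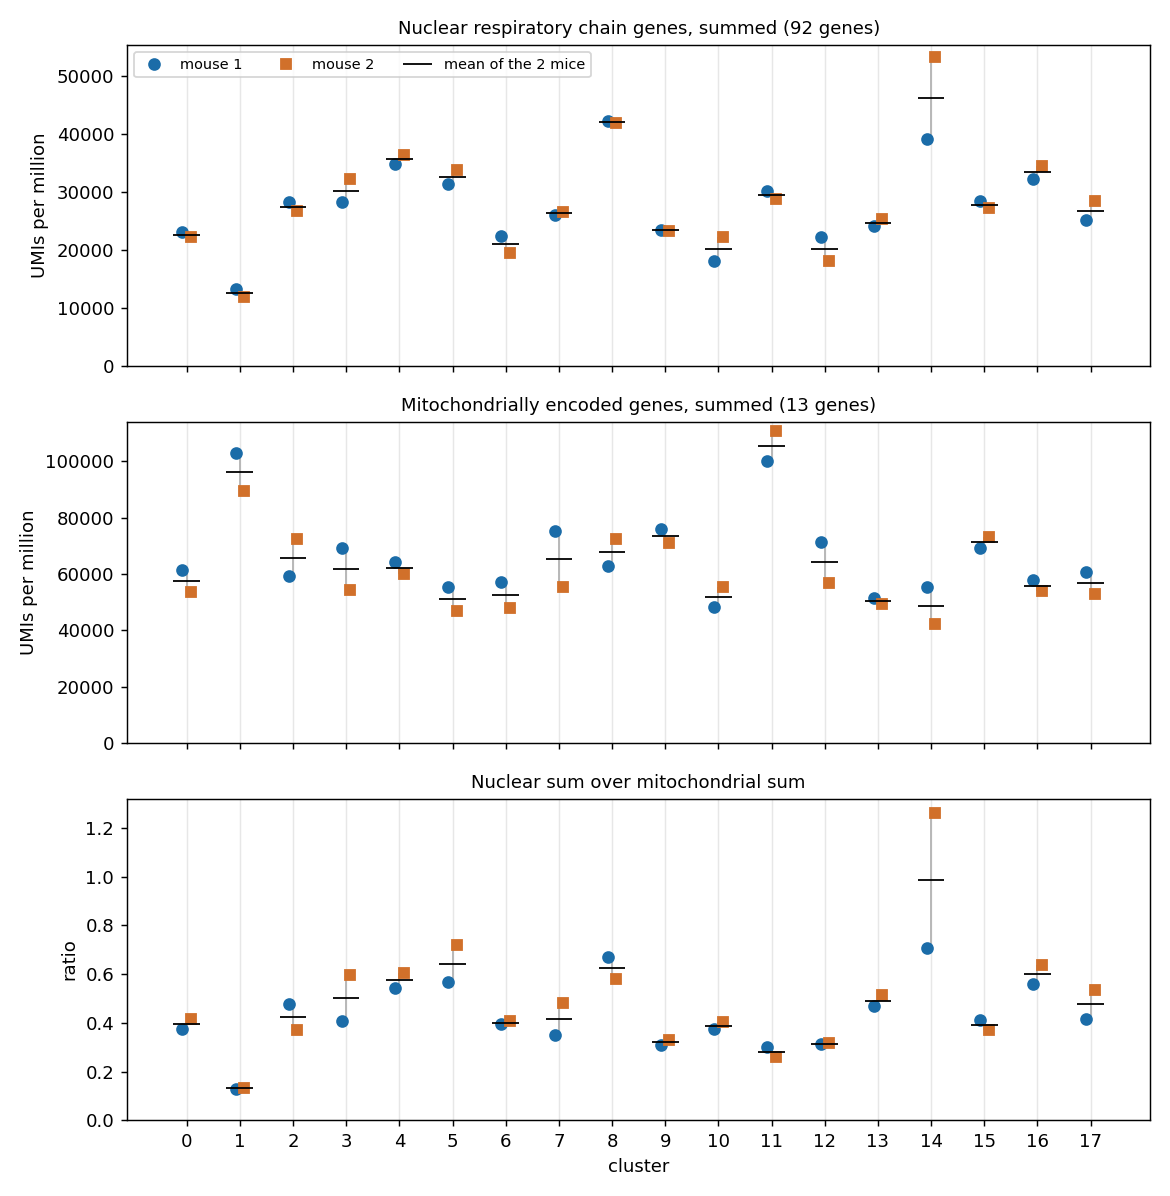
Summed level of the 92 nuclear genes (top) and the 13 mitochondrial genes (middle), in CPM, and their ratio (bottom), in each of the 18 clusters; circles are mouse 1, squares mouse 2 and bars their mean. Cluster 1 is lowest in the top panel (13359 and 11836) and among the highest in the middle one, and cluster 14 has the highest ratio in both mice.

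Several other quantities moved with these sums, and their part in them was not tested. Cluster 1 was shallow, and it held the most Malat1, a nuclear noncoding RNA, with 71950 and 70798 CPM against medians over clusters of 14144 and 21972. Its cytosolic ribosomal protein genes (Rpl and Rps) were the lowest of all clusters, at 121474 and 96405 CPM, against medians of 180764 and 184058. In mouse 2 it also held 2766 CPM of the erythroid list, led by hemoglobin Hbb-bs at 1494 CPM; in mouse 1 all 5 erythroid genes were at 0 in that cluster, and the nuclear and mitochondrial levels were similar in both mice. In cluster 14 the immune list stood at 1001 CPM in mouse 2, of which the neutrophil gene S100a8 made up 957, while the leukocyte gene Ptprc stood at 0 and 1.99 CPM. S100a8 was at 116 CPM in cluster 14 of mouse 1. It was not limited to that cluster, with 151 and 546 CPM in cluster 2 and 79.8 and 440 in cluster 8. In mouse 1 the immune list was highest in cluster 2, at 232 CPM. The Spearman correlation of median UMIs per cell with the nuclear sum over the 18 clusters was 0.41 in mouse 1 and 0.32 in mouse 2, and with the mitochondrial sum -0.03 and 0.06. Malat1 ran against the nuclear sum (Pearson's r -0.68 and -0.66) and with the mitochondrial sum (0.66 and 0.69). Without clusters 1, 5 and 14 these values were -0.57 and -0.42, and 0.24 and 0.57, over 15 clusters. Fewer mitochondria per cell and less RNA per mitochondrion cannot be told apart in such counts.

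Across the 18 clusters the nuclear and mitochondrial sums showed a weak relation, and its sign depended on the shallow clusters. Pearson's r was -0.27 in mouse 1 and -0.26 in mouse 2 (Spearman -0.12 and -0.14). Without clusters 1, 5 and 14, a choice made after the data were seen, it was 0.20 and 0.22 over 15 clusters (Spearman 0.26 and 0.34). The clusters share their library and the total in the denominator, so these values are descriptions. The parts of the same enzyme showed the same dependence. The nuclear and mitochondrial genes of complex I correlated at -0.04 and -0.10, those of complex III at -0.11 and -0.29, of complex IV at -0.39 and -0.30, and of complex V at -0.26 and -0.25 (Pearson, mouse 1 and mouse 2, 18 clusters). Without clusters 1, 5 and 14 all of these were positive, at 0.42 and 0.49 for complex I, 0.21 and 0.31 for complex III, 0.18 and 0.12 for complex IV, and 0.11 and 0.18 for complex V.

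The nuclear complexes, in contrast, ran in parallel. The sums of complex I and complex V correlated at 0.98 in mouse 1 and 0.99 in mouse 2, and those of complex III and complex IV at 0.98 in each (Pearson, 18 clusters). The weakest pairs were complex I assembly factors with complex IV in mouse 1 (0.60) and complex II with complex V in mouse 2 (0.69). Of the 92 nuclear genes, 83 had a Spearman correlation above 0.5 with the sum of the other 91, the median being 0.89. All 13 mitochondrial genes exceeded 0.5 with the sum of the other 12, with a median of 0.89. Against the other set, the medians were -0.10 for nuclear and -0.11 for mitochondrial genes. Gene by gene, 43 of the 92 nuclear members were highest in cluster 14 as the mean of the mice, 20 in cluster 8, 9 in cluster 16 and 7 in cluster 4. In the single mice, cluster 8 led for 48 members in mouse 1 and 6 in mouse 2, and cluster 14 for 17 and 58. The low end was steadier, since cluster 1 was lowest for 61 members in both mice. Of the 13 mitochondrial genes, 9 were highest in cluster 11 and 4 in cluster 1 as means. In mouse 1 cluster 1 led for 8 and cluster 11 for 5, and in mouse 2 for 2 and 10.

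**Figure D2:**
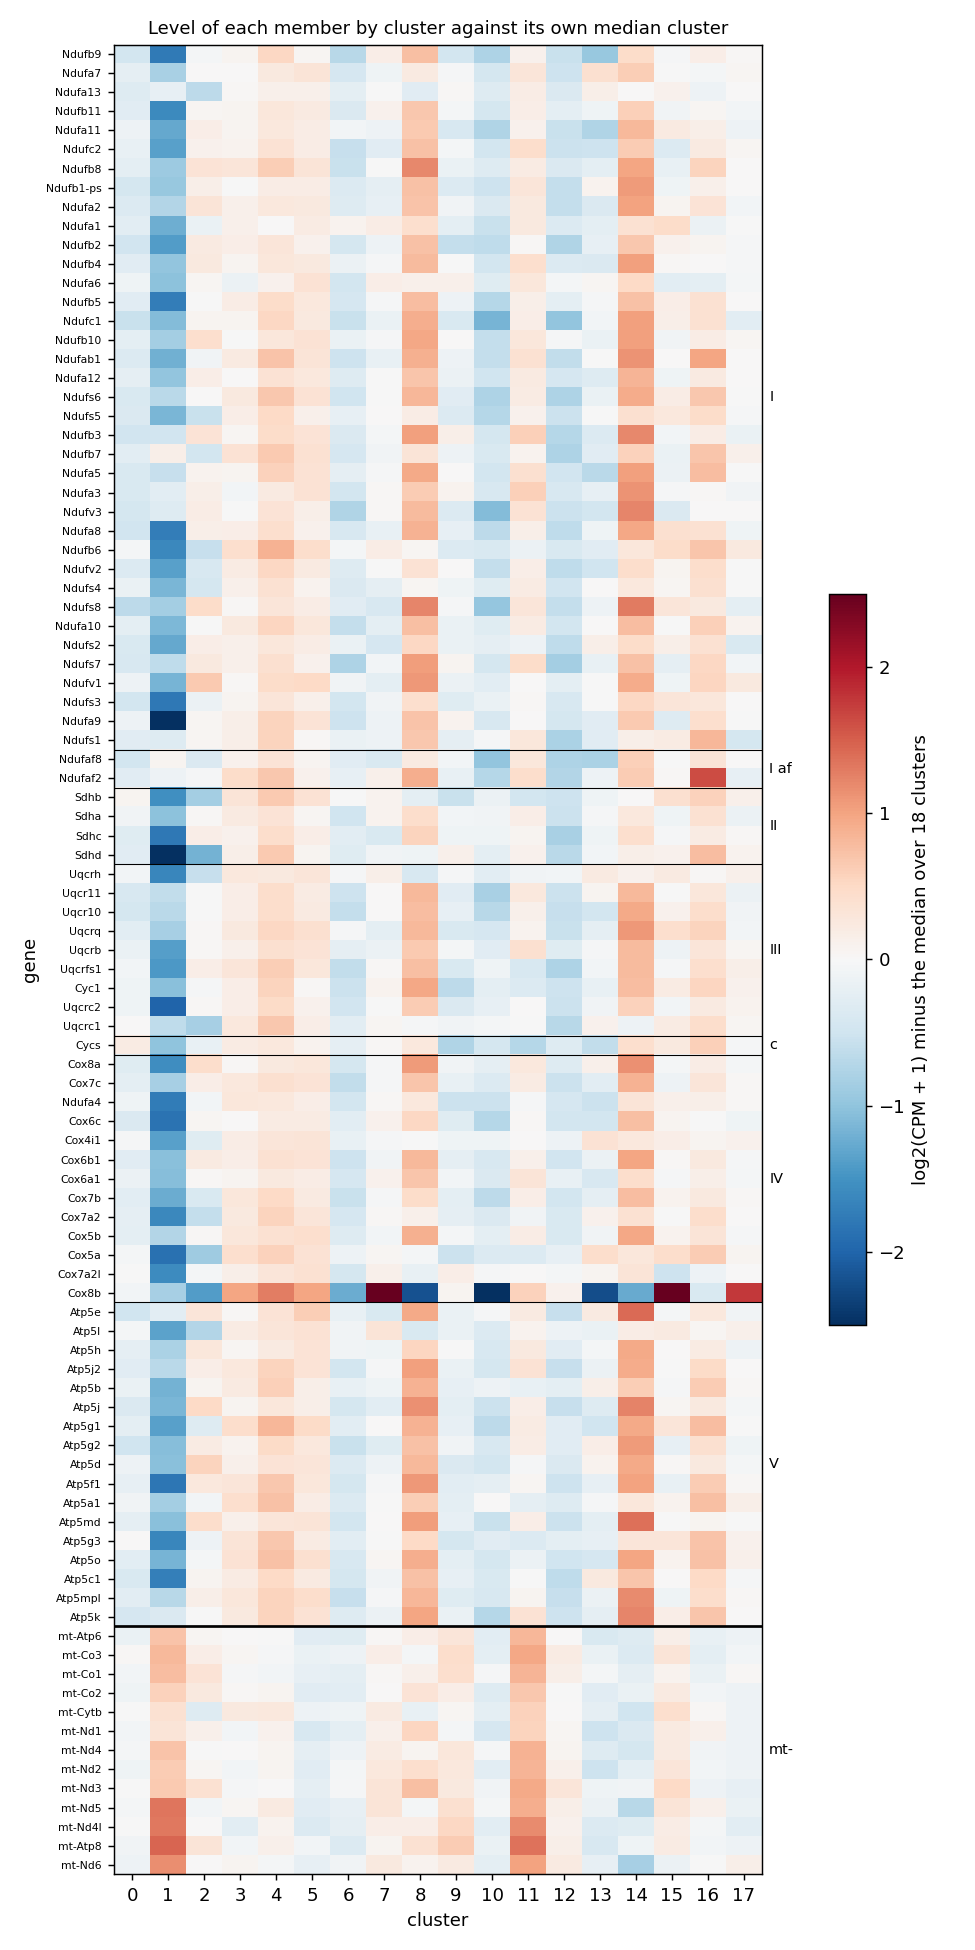
Each row is 1 gene (83 nuclear genes with a mean of at least 50 CPM in some cluster, grouped by complex, then the 13 mitochondrial genes below the thick line) and each column a cluster; colour is log2(CPM + 1) of the mean of the mice minus that gene's median over the clusters, capped at 2.5 either way. Most nuclear rows are blue in cluster 1 and red in clusters 8 and 14, the mitochondrial rows are red in clusters 1 and 11, and Cox8b follows neither.

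By edgeR's quasi-likelihood F test over the 18 clusters, blocked by mouse and with p-values adjusted after Benjamini-Hochberg (threshold 0.05), 88 of 90 nuclear members tested and 13 of 13 mitochondrial genes differed among clusters. The background was 80.6% of 11603 genes, and 99.3% of the 551 genes at or above the median CPM of the nuclear members, so the members' share was that of other abundant genes. Ndufaf5 and Ndufaf7, both complex I assembly factors, were not called, and Cox4i2 and Cox6b2 fell under the filter on low counts. Without clusters 1, 5 and 14 the test called 85 of 91 nuclear members, 11 of 13 mitochondrial genes and 8596 of all 11901 genes tested. The genes mt-Nd2 and mt-Nd4 were then not called, with adjusted p = 0.065 and 0.079 in edgeR. Without the mouse block 9 mitochondrial genes and 8301 of all 11603 genes were called.

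The widest spans among the nuclear genes belonged to Cox8b, Sdhd, Ndufa9, Atp5f1, Ndufa8, Uqcrc2, Cox8a and Cox6c. Apart from Cox8b, all were lowest in cluster 1. Sdhd, a membrane anchor of succinate dehydrogenase (chr9:50596357-50603812), averaged 103 ± 5.57 CPM in cluster 16 and 7.04 ± 0.247 in cluster 1 (SD, n = 2 mice each), a 14.6-fold span. Ndufa9, an accessory subunit of complex I (chr6:126821721-126849136), averaged 92 ± 30.5 CPM in cluster 8 and 7.73 ± 0.724 in cluster 1, an 11.9-fold span. Cluster 1 held 554290 UMIs of all genes in mouse 1 and 728103 in mouse 2. The Sdhd and Ndufa9 values there therefore rest on few UMIs, and the folds are loosely fixed however small the SD. Atp5f1, the peripheral stalk subunit b of complex V (chr3:105942698-105960099), averaged 826 ± 78.1 CPM in cluster 8 and 110 ± 27.5 in cluster 1. The differences exceeded the spread between mice in each of these genes. The choice of the widest spans and of each gene's extreme clusters favours such a result.

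Ndufa8, another accessory subunit of complex I, averaged 293 ± 54.8 CPM in cluster 14 and 44.4 ± 9.14 in cluster 1 (SD, n = 2 mice each). Uqcrc2, a core protein of complex III, averaged 174 ± 51.9 CPM in cluster 8 and 26.8 ± 2.93 in cluster 1. In complex IV, Cox6c averaged 1705 ± 505 CPM in cluster 14 and 280 ± 15 in cluster 1. Cox8a, the common form of the smallest subunit and the complex IV gene with the most UMIs, averaged 2385 ± 1110 CPM in cluster 14 and 370 ± 7.44 in cluster 1. The spread of Cox8a in cluster 14 came from 1600 CPM in mouse 1 and 3170 in mouse 2, both above cluster 1, so its fold is loosely fixed.

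Some members departed from the rest. The assembly factor Ndufaf6, with a Spearman correlation of 0.08 with the rest of the nuclear set, was highest in cluster 7 (46.1 and 51.0 CPM) and lowest in cluster 10 (6.11 ± 1.75, SD, n = 2 mice), and was named after its values were seen. Tissue isoforms held others. Complex IV has paired genes for several small subunits, one used in most tissues and one in heart and skeletal muscle or another tissue. Cox8b, the heart and muscle form of Cox8a (chr7:140898945-140900446), held 16.2 CPM in mouse 1 and 98.4 in mouse 2 in cluster 15, 41.3 and 70.0 in cluster 7, and 7.34 and 35.1 in cluster 17. In cluster 8, where Cox8a stood at 1874 and 2652 CPM, Cox8b was at 0.642 and 0.257, and in cluster 10 at 0 and 0.256. Cluster 15 held 191 cells of mouse 1 but 17 of mouse 2, so its value in mouse 2 rests on few cells. Cox8b was called in the 18-cluster test (edgeR adjusted p = 7.6e-06), and its Spearman correlation with the rest of the nuclear set over the clusters was 0.16. Cox8a exceeded Cox8b in all clusters of both mice.

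Cox7a1, the muscle form of Cox7a2, was highest in clusters 8 (20.7 and 43.5 CPM) and 14 (19.3 and 43.8) and lowest as a mean in cluster 6 (5.57 and 2.52), beside 335 to 378 CPM of Cox7a2 there. Cox4i2, known for expression in lung and low oxygen, and Cox6b2, known from testis, stayed at most at 3.14 and 8.17 CPM, both in cluster 6 of mouse 2, against 790 CPM of Cox4i1 and 453 of Cox6b1 in the same cells. Cox7a2l, which helps assemble supercomplexes of III and IV, was at 452 ± 62.8 CPM in cluster 5 and 115 ± 7.64 in cluster 1 (SD, n = 2 mice). Of the genes for subunit c of the ATP synthase ring, which encode the same mature protein, Atp5g1 and Atp5g2 peaked in cluster 14 (894 ± 54.9 and 1008 ± 184 CPM) and Atp5g3 in cluster 16 (531 ± 121), and all were lowest in cluster 1 (182 ± 36, 228 ± 47.1 and 105 ± 17.9 CPM). Several members have processed pseudogenes, and reads shared with such copies may have been left out by the authors' counting.

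Within the mitochondrial set the proportions of the abundant genes were steadier than those of the scarce ones. mt-Atp6 was, averaged over both mice, the largest member in each of the 18 clusters, although mt-Co3 exceeded it in clusters 0, 7, 12 and 15 of mouse 2. It took between 19.2% of mitochondrial UMIs (cluster 13, mean of mice) and 21.3% (cluster 1). mt-Co3 took 15.4% in cluster 8 and 20.2% in cluster 11, mt-Co1 13.7% in cluster 15 and 17.6% in cluster 13, and mt-Co2 13.8% in cluster 11 and 17% in cluster 8; these encode the catalytic core of complex IV. mt-Cytb, the heme-bearing core of complex III, took 8.17% in cluster 2 and 12.8% in cluster 4. Of the complex I genes, mt-Nd1 took 5.54% in cluster 1 and 8.96% in cluster 8, mt-Nd2 3.85% in cluster 13 and 5.46% in cluster 8, mt-Nd4 4.65% in cluster 14 and 5.82% in cluster 10, and mt-Nd3 1.38% in cluster 17 and 2.21% in cluster 8. mt-Nd5 (0.759% in cluster 14, 1.58% in cluster 1), mt-Nd4l (0.459% in cluster 3, 0.868% in cluster 1), mt-Atp8 (0.274% in cluster 13, 0.527% in cluster 1) and mt-Nd6 (0.0947% in cluster 14, 0.181% in cluster 1) were the scarce members, and all 4 had their highest share in cluster 1. mt-Atp8 was also at 0.445% in mouse 1 and 0.608% in mouse 2 there, and mt-Nd4l at 0.646% and 1.09%, so that the mice differed in the size of that share.

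The level in single cells showed that the low mitochondrial sums of clusters 5 and 14 were not shared evenly by their cells. A limit of 1% of UMIs on mitochondrial genes was set after the data were seen; 298 of 3829 cells of mouse 1 (7.78%, 6.95 to 8.68%) and 336 of 5330 of mouse 2 (6.30%, 5.67 to 6.99%) lay under it (exact Clopper-Pearson 95% intervals, counting error only). In cluster 14 these were 42 of 83 cells (50.6%, 39.4 to 61.8%) in mouse 1 and 75 of 155 (48.4%, 40.3 to 56.5%) in mouse 2. In cluster 5 they were 40.8% (35.0 to 46.8%) and 37.5% (31.7 to 43.5%), and in cluster 10 28.7% (20.1 to 38.6%) and 11.4% (7.83 to 15.9%). Cluster 8 had 3 such cells in each mouse, and cluster 13 had 3 and 1. Within 0.5 percentage points of the limit lay 112 cells of mouse 1 and 185 of mouse 2.

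The same cells were not low in nuclear respiratory transcripts. In cluster 14 the cells under the limit held 57516 nuclear CPM in mouse 1 and 61039 in mouse 2, against 34218 and 48178 in the other cells of that cluster. Per 1000000 UMIs outside the mitochondrial genes the values were 57571 and 61112, against 36788 and 51830, so the direction was the same with the mitochondrial UMIs out of the denominator. In cluster 4 the cells under the limit held 47797 and 48037 nuclear CPM, against 34473 and 36043 in the others. Of the clusters with at least 10 such cells, the nuclear level was higher in them in 6 of 7 in mouse 1 and in 7 of 8 in mouse 2. With UMIs outside the mitochondrial genes as the denominator these counts were 5 of 7 and 7 of 8, since cluster 10 of mouse 1 turned round (18195 under the limit, against 19309 in its other cells). Cluster 1 was an exception in both mice on either scale, with 8959 and 6807 CPM, against 13518 and 12002 in its other cells. The cells under the limit had fewer UMIs, with a median of 2653.5 in mouse 1 and 1906 in mouse 2, against 15929 and 10010.5 in the other cells. Within cluster 14 the medians were 2322 and 2047 UMIs under the limit, against 6333 and 2138.5 above it. No mitochondrial UMI was found in 61 cells of mouse 1 and 35 of mouse 2, which had medians of 1352 and 1310 UMIs. The part of depth in these values was not tested.

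**Figure D3:**
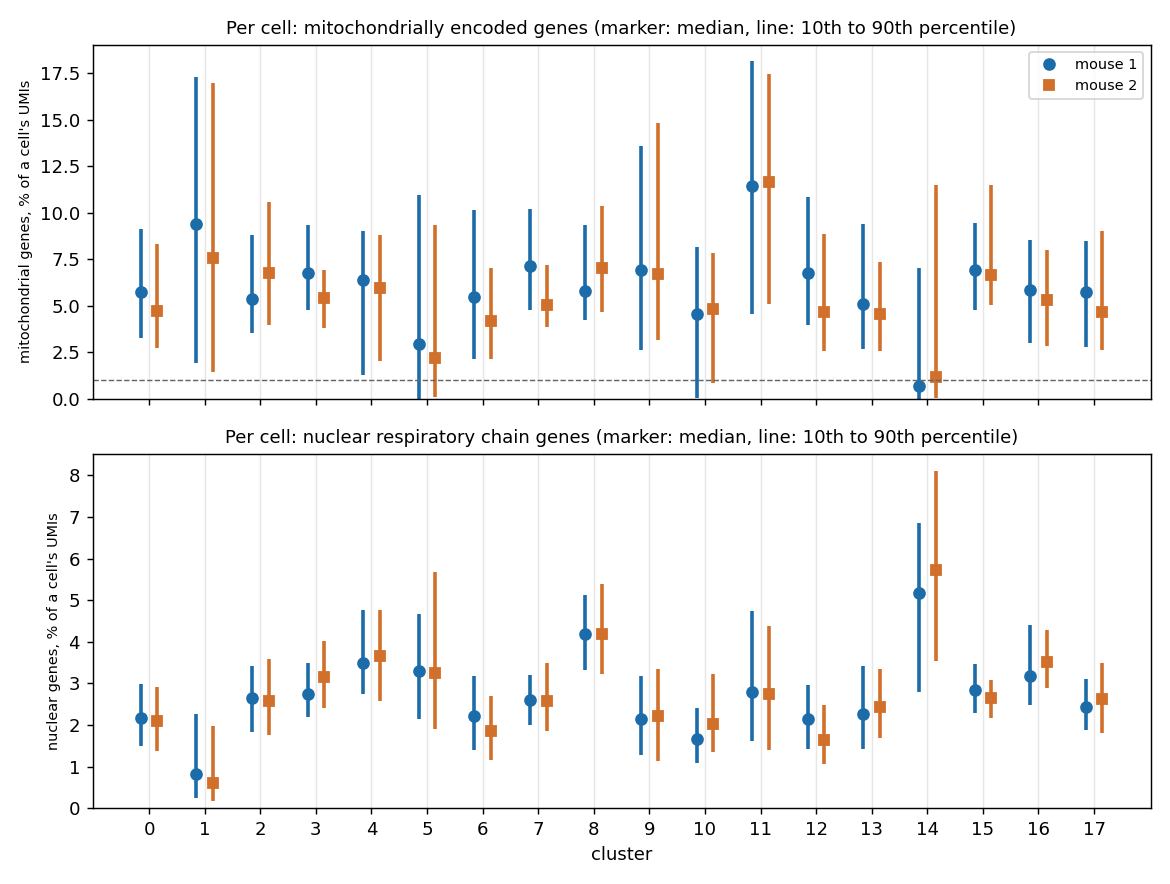
Percent of a cell's UMIs from the 13 mitochondrial genes (top) and the 92 nuclear genes (bottom) by cluster; markers are medians over cells, lines run from the 10th to the 90th percentile, and the dashed line is the 1% limit. Cluster 14 has a median near the limit (0.683% in mouse 1, 1.18% in mouse 2) together with the highest nuclear median (5.17% and 5.73%).

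The study set cluster 6, which has both basal and luminal genes, against cluster 13, the mature luminal cluster. The summed nuclear level was 22475 CPM in mouse 1 and 19530 in mouse 2 in cluster 6, against 24107 and 25315 in cluster 13, a ratio of 0.850 of the means. Cluster 6 was lower in each mouse, by less in mouse 1 (0.932) than in mouse 2 (0.771). The mitochondrial level was 57117 and 47903 CPM in cluster 6, against 51521 and 49364 in cluster 13, with opposite directions in the mice. The ratio of nuclear to mitochondrial UMIs was 0.393 and 0.408 in cluster 6, against 0.468 and 0.513 in cluster 13. These values did not overlap, but they did as means over cells (0.427 in cluster 6 of mouse 2, against 0.410 in cluster 13 of mouse 1) and with cells thinned to 2000 UMIs (0.408, against 0.402).

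Gene by gene, the shift of the nuclear genes in cluster 6 was downward and small. In edgeR's quasi-likelihood test on the 4 sums, with the same block and adjustment, 89 nuclear members were tested, of which 10 were lower in cluster 6 and 1 was higher. Over all 9794 genes tested, 12.1% were lower and 16.2% higher, so the share of members called lower (11.2%) was near the background. Of the 704 tested genes at or above the median abundance of the nuclear members, 23.4% were lower. The median log2 fold change of the 89 members was -0.35, against 0.01 for all genes tested and -0.15 for those 704. Lower values in cluster 6 in both mice were seen in 57 of 89 members (64.0%), in 31.4% of all genes tested and in 43.3% of the 704. Leaving out any 1 of the 4 sums, with no mouse block, left 0 nuclear members called by edgeR (5 to 22 at an unadjusted p under 0.05), while over all genes 714 to 1387 were called in 3 of these fits and 0 without cluster 6 of mouse 2. DESeq2 called 5 members, all lower, and 1117 of all 9794 genes. Genes of other cell types moved with this comparison. All 8 fibroblast genes and both endothelial genes tested were higher in cluster 6. The endothelial list reached 21.7 and 322 CPM there in mouse 1 and mouse 2. Of 2 pericyte genes tested, 1 was higher and 1 lower. The pericyte list stood at 27.6 and 304 CPM in cluster 6, and in mouse 1 it was highest in cluster 13, at 55.8 CPM. Cells with at least 3 genes of the fibroblast, pericyte, endothelial or immune list were 30 of 260 and 44 of 167 in cluster 6. Without them 7 of 89 members were lower and 1 higher, beside 2429 of all 9414 genes called in either direction.

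In complex I, 3 of 37 subunits (8.11%) were lower in cluster 6 and none was higher. The share called lower was 12.1% of all genes tested and 23.4% of the 704 abundant genes. Ndufa7, an accessory subunit, had 290 and 240 CPM in mouse 1 and mouse 2 in cluster 6, against 402 and 537 in cluster 13. The log2 fold change of -0.91 (SE 0.24, edgeR adjusted p = 0.0033) was the most negative of the nuclear members tested. Ndufa10 had 72.1 and 50.9 CPM in cluster 6, against 109 and 78.2 in cluster 13 (log2 fold change -0.70, SE 0.27, edgeR adjusted p = 0.048). Ndufa6 had 182 and 162 CPM in cluster 6, against 266 and 231 in cluster 13 (log2 fold change -0.62, SE 0.24, edgeR adjusted p = 0.048). Both accessory subunits were near the threshold, and the clusters overlapped in neither, although for Ndufa10 cluster 13 of mouse 2 came close to cluster 6 of mouse 1. Ndufb9, the complex I gene with the most UMIs, had 505 and 279 CPM in cluster 6, against 346 and 314 in cluster 13, and the mice went opposite ways (edgeR adjusted p = 0.82).

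Among the assembly factors, which build complex I and are not part of it, 1 of 7 tested was called higher, beside 16.2% of all genes tested. Ndufaf4 (chr4:24898083-24905001) had 44.9 and 25.8 CPM in cluster 6, against 22.1 and 7.86 in cluster 13, with a log2 fold change of 1.23 (SE 0.36, edgeR adjusted p = 0.0099). It was the only nuclear member called higher by edgeR, and DESeq2 did not call it. It was higher in both mice, and the mice differed by about as much as the clusters, so that cluster 6 of mouse 2 lay just above cluster 13 of mouse 1. Over the 18 clusters Ndufaf4 peaked in cluster 15 (45.7 ± 16.7 CPM, SD, n = 2 mice) and was lowest in cluster 2 (9.10 ± 2.20). Ndufaf8, the most abundant factor, had 61.6 and 47.8 CPM in cluster 6, against 28.7 and 47.2 in cluster 13 (edgeR adjusted p = 0.35).

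No gene of complex II passed the test. Its most abundant member Sdhb, the iron-sulfur subunit of succinate dehydrogenase, had 95.6 and 70.4 CPM in cluster 6, against 82.0 and 72.8 in cluster 13 (edgeR adjusted p = 0.99). In complex III, 1 of 9 genes was lower (11.1%, beside 12.1% of all genes tested). This was Uqcr11, a small subunit, with 337 and 305 CPM in cluster 6, against 467 and 509 in cluster 13 (log2 fold change -0.70, SE 0.22, edgeR adjusted p = 0.017). Uqcrh, the hinge protein and most abundant member, had 566 and 485 CPM in cluster 6, against 727 and 534 in cluster 13 (edgeR adjusted p = 0.24). Cycs had 213 and 163 CPM in cluster 6, against 154 and 130 in cluster 13, higher in both mice without passing the test (log2 fold change 0.30, SE 0.24, edgeR adjusted p = 0.40).

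Complex IV had 4 lower genes of 14 tested (28.6%), beside 12.1% of all genes tested and 23.4% of the 704 abundant genes. Cox5a, a nuclear subunit of the enzyme's core region, had 330 and 266 CPM in cluster 6, against 448 and 445 in cluster 13 (log2 fold change -0.69, SE 0.23, edgeR adjusted p = 0.021). Cox8a had 829 and 765 CPM in cluster 6, against 1227 and 1144 in cluster 13 (log2 fold change -0.67, SE 0.19, edgeR adjusted p = 0.0083). Cox4i1, a subunit through which ATP regulates the enzyme, had 851 and 790 CPM in cluster 6, against 1240 and 1155 in cluster 13 (log2 fold change -0.64, SE 0.19, edgeR adjusted p = 0.011). In all of these genes both values of cluster 6 lay below both of cluster 13. Cox7a2 was the remaining one, with a log2 fold change of -0.62 (SE 0.22, edgeR adjusted p = 0.034).

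The other complex IV genes named for their isoforms did not pass. Cox6a1, Cox6b1, Cox7b, Cox7a2l and Ndufa4 had log2 fold changes of -0.12, -0.47, -0.42, -0.58 and -0.01, with edgeR adjusted p = 0.76, 0.11, 0.18, 0.059 and 0.98. Cox7a1 and Cox6b2 had log2 fold changes of -0.40 and -0.17 with standard errors of 0.62 and 0.66, too wide to place them. Cox4i2, Cox8b and the assembly factor Ndufaf5 were under the filter, and Cox4i2 had 1.47 and 3.14 CPM in cluster 6 and 0 in both sums of cluster 13.

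Of complex V, 2 of 17 genes were lower (11.8%, beside 12.1% of all genes tested). Atp5g2, which encodes subunit c of the membrane ring (chr15:102662864-102672352), had 355 and 298 CPM in cluster 6, against 544 and 527 in cluster 13 (log2 fold change -0.81, SE 0.22, edgeR adjusted p = 0.0050). Atp5c1, the central stalk subunit gamma, had 244 and 218 CPM in cluster 6, against 376 and 371 in cluster 13 (log2 fold change -0.79, SE 0.23, edgeR adjusted p = 0.0091). The clusters did not overlap in either gene. Of the other genes of the ring, Atp5g1 had 471 and 304 CPM in cluster 6, against 329 and 326 in cluster 13, and Atp5g3 had 284 and 258, against 299 and 268 (edgeR adjusted p = 0.78 and 0.68). Atp5e, the small epsilon subunit and the most abundant gene of the complex, had 511 and 679 CPM in cluster 6, against 630 and 963 in cluster 13 (edgeR adjusted p = 0.071), and here the mice differed more than the clusters.

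None of the 13 mitochondrial genes was called between clusters 6 and 13 by edgeR (1 at an unadjusted p under 0.05) or by DESeq2 (0 at an unadjusted p under 0.05). Their median log2 fold change was 0.01, that of all genes tested. mt-Co1 had 7961 and 7452 CPM in cluster 6, against 9335 and 8481 in cluster 13, lower in both mice (log2 fold change -0.30, SE 0.13, edgeR adjusted p = 0.080). mt-Nd2 had 3182 and 2180 CPM in cluster 6, against 1869 and 2014 in cluster 13, higher in both mice (log2 fold change 0.35, SE 0.18, edgeR adjusted p = 0.16). Each of them passed under 1 alternative: mt-Co1 with cells thinned to 2000 UMIs (log2 fold change -0.37, edgeR adjusted p = 0.0028), and mt-Nd2 without cells that held genes of other types (log2 fold change 0.47, edgeR adjusted p = 0.031). mt-Nd1 had 3816 and 3340 CPM in cluster 6, against 2735 and 3139 in cluster 13 (edgeR adjusted p = 0.43). The other 10 mitochondrial genes had log2 fold changes from -0.13 (mt-Nd5) to 0.10 (mt-Nd4).

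**Figure D4:**
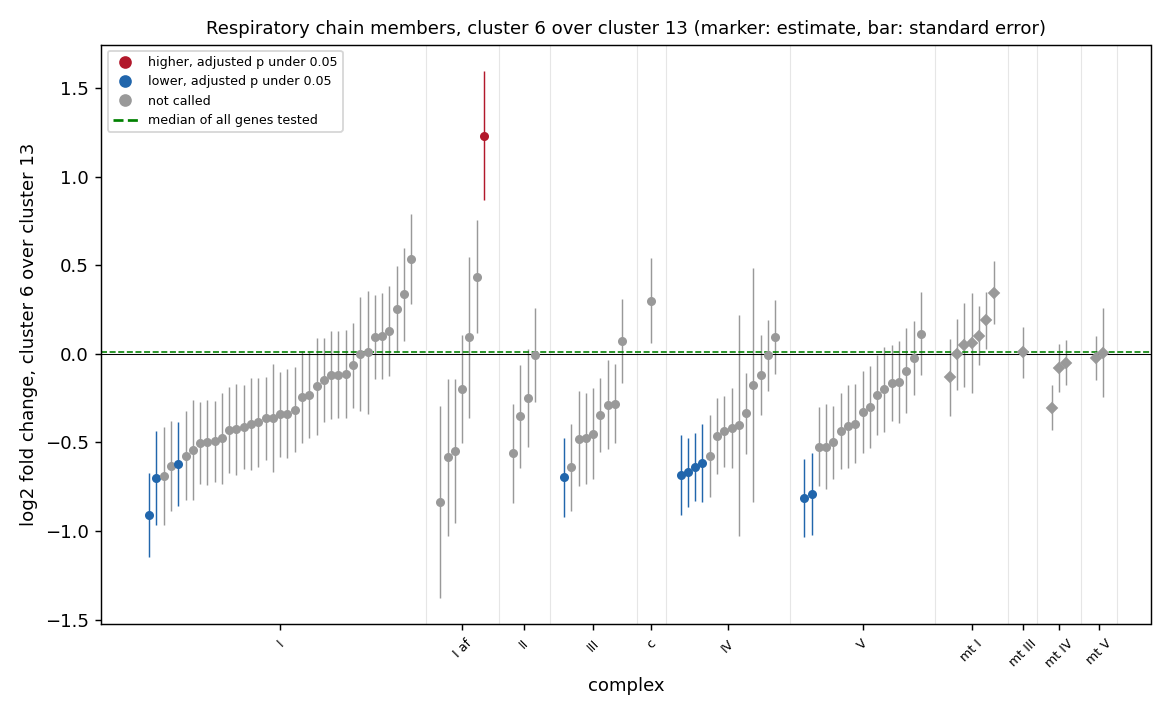
Log2 fold change of cluster 6 over cluster 13 for each member tested, grouped by complex (af, assembly factors; c, cytochrome c; circles nuclear, diamonds mitochondrial, marked mt), with its standard error; red and blue mark genes higher and lower at an adjusted p under 0.05 and the dashed line is the median of all genes tested (0.01). Most nuclear genes lie below the line (median -0.35) and the mitochondrial genes lie around it.

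Genes that work beside the chain were read in the same test. Over all genes in it, 12.1% were lower in cluster 6 and 16.2% higher, and the counts of each list stand beside these shares. Of 16 complex IV assembly factors, 12 were tested: the copper chaperone Cox17 was lower in cluster 6 (108 and 96.8 CPM, against 157 and 193 in cluster 13; log2 fold change -0.86, SE 0.25) and the copper-insertion factor Cox11 was higher (30.5 and 12.6 CPM, against 10.7 and 5.38; log2 fold change 1.29, SE 0.42). Of 4 complex III assembly factors tested, Ttc19 was higher (81.5 and 56.0 CPM in cluster 6, against 28.7 and 22.3 in cluster 13). Of 14 tricarboxylic acid cycle genes, 2 were lower and none higher: Fh1, fumarate hydratase, had 37.8 and 18.2 CPM in cluster 6, against 54.1 and 63.7 in cluster 13, and Idh3b, a subunit of isocitrate dehydrogenase, had 48.7 and 32.7, against 76.3 and 60.8. The list's median log2 fold change was -0.36. Of 9 genes tested for replication and transcription of the mitochondrial chromosome, only the helicase Twnk was called, at 4.98 and 3.14 CPM in cluster 6, against 17.2 and 41.4 in cluster 13 (log2 fold change -2.71, SE 0.46).

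None of the 7 nuclear biogenesis regulators tested (from a list with Ppargc1a, Nrf1, Gabpa, Esrra and Yy1) was called, with a median log2 fold change of 0.08, and none of 7 genes of pyruvate entry (median 0.06). Of 12 membrane transport genes, the ADP/ATP carrier Slc25a4 was higher, at 356 and 203 CPM in cluster 6, against 159 and 143 in cluster 13. Of 16 glycolysis genes, 3 were higher and 1 lower, beside 16.2% higher and 12.1% lower over all genes tested. Ldhb, a lactate dehydrogenase subunit, had 104 and 59.7 CPM in cluster 6, against 19.7 and 12.4 in cluster 13 (log2 fold change 2.24, SE 0.32), and Pfkp, a phosphofructokinase, had 104 and 98.7, against 34.4 and 36 (log2 fold change 1.42, SE 0.28). The median of the glycolysis list was -0.06.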

How the data were processed

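Raw UMI counts per gene and barcode were deposited by the authors, from Cell Ranger 6.0.1 on build mm10, 1 library per mouse, with 63140346 and 61529883 UMIs. Their deposited annotation, made with Seurat (4.0.3 in the submitters' processing notes), gives clusters and a mitochondrial fraction of UMIs per cell; per the methods, doublets (scDblFinder), cells of at most 500 UMIs or 200 genes, outliers of the mitochondrial share, genes under 10 UMIs and lymphoid and myeloid clusters were removed, and the mice were integrated. The mitochondrial share recomputed here differed from that fraction by at most 0.0067.

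UMIs were summed per mouse and cluster. edgeR 4.0.16 (limma 3.58.1, R 4.3.3) used filterByExpr, TMM, a block for the mouse and p-values adjusted after Benjamini-Hochberg over all genes (threshold 0.05); fits on 4 and 36 sums had 1 and 17 residual degrees of freedom. The pairing comes from the animal; the differences between mice in clusters 6 and 13 correlated at 0.14 over 9794 genes. Standard errors divide the absolute log2 fold change by the root of F. Fold changes use TMM, and CPM do not. DESeq2 1.42.0 was an alternative, with the block for the mouse and on the genes that passed edgeR's filter. Separate alternatives were no filter, no block, other denominators, thinning to 2000 UMIs (seed 1), cells with 3 or more genes of another type left out, and single sums left out. Low counts limit precision, and intervals cover counting error only. Each edgeR p-value sets the difference between clusters against the variation left after the block, with information shared across genes. It rests on 2 mice.

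The members and lists were chosen with earlier results of these data known. Named were all mitochondrial genes, isoform pairs, the 8 widest spans (at least 50 CPM in the highest cluster), per complex the member with most UMIs and up to 3 with the largest called change, and up to 2 called genes per other list. Python 3.11.15 (pandas 2.3.3, scipy 1.17.1, matplotlib 3.10.9) was used.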

Additional observations from a re-analysis of the deposited data

Results flagged for a closer look

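Barcodes that the authors left without annotation enter no comparison, and the mitochondrial share of UMIs was itself one ground on which the authors removed cells: 2311 of 2346 in mouse 1 and 1948 of 2208 in mouse 2 lay above every annotated cell of that mouse. The values are therefore a description of what was removed. The mitochondrial genes took 56.7% of their summed UMIs in mouse 1 (2346 barcodes) and 38.6% in mouse 2 (2208 barcodes), against 6.55% and 6.01% in annotated cells. The nuclear respiratory genes took 0.856% and 1.38% of their UMIs, against 2.75% and 2.79%. Their median depth was 1280 and 1160 UMIs.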

How the results depend on the processing

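Between clusters 6 and 13, the count of nuclear genes called (11 in edgeR, with 2773 of all 9794 genes) was 5 with DESeq2 (1117 of all 9794), 3 without the replicate block for the mouse (1996 of 9794), 3 with cells thinned to 2000 UMIs (1071 of 4705; Atp5c1 and Uqcr11 were among the 11) and 0 with any 1 of the 4 sums left out (range 0 to 0). A lone sum is there assumed to vary like the others, and over all genes 714 of 10108, 1300 of 11046 and 1387 of 10214 were called in 3 of these fits and 0 of 10672 without cluster 6 replicate 2 (3035 at an unadjusted p under 0.05). With the contrast taken from all 36 sums 15 were called (2525 of all 11603), 10 of them among the 11. The members' median log2 fold change stayed between -0.47 and -0.22 in these fits. The mitochondrial count (0) was 1 with thinned cells and 1 with cells of other types left out (2429 of all 9414 genes). Of the single genes named, no log2 fold change that was called reversed.

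The ratio of nuclear to mitochondrial level in cluster 6 over cluster 13 (0.817) was 0.897 as a mean over cells, 0.890 with thinned cells and 0.782 without cells of other types. As means over cells, the span from highest to lowest cluster was 5.49 for the nuclear sum (3.67 from summed UMIs), 3.46 for the mitochondrial sum (2.16) and 15.7 for their ratio (7.52). The mitochondrial span was 3.10 with thinned cells and 2.13 to 2.62 in single mice. Without clusters 1, 5 and 14, chosen after the data were seen, the nuclear span was 2.09 and that of the ratio 2.23. The causes were not tested. With 2 mice, 1 condition and few UMIs in the shallow clusters, depth limits low members such as Cox4i2 and Cox6b2.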

Other observations

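Across clusters the nuclear respiratory sum ran beside other energy genes, given as a description over 18 clusters that share a library and a denominator. Pearson's r with the tricarboxylic acid cycle list was 0.90 in mouse 1 and 0.82 in mouse 2, with the complex IV assembly factors 0.91 and 0.94, and with glycolysis 0.79 and 0.84. Without clusters 1, 5 and 14, chosen after the data were seen, the values for the tricarboxylic acid cycle were 0.87 and 0.86 and those for glycolysis 0.73 and 0.69. Glycolysis peaked in cluster 14, at 11270 and 12945 CPM, against medians over clusters of 4661 and 4520. The list of nuclear biogenesis regulators ran the other way, with r = -0.67 and -0.79, and the genes for replication and transcription of the mitochondrial chromosome followed the nuclear sum (0.59 and 0.57) more than the mitochondrial sum (0.27 and 0.30).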
